A study of Mus musculus with 8 samples.

Results

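Magnesium channels and transporters are represented here by 10 genes, all of which were found among the 55335 genes of the deposited table by matching Ensembl identifiers to mouse symbols. They were listed by name for their place in magnesium transport, and no measured value enters the rule. The choice was nevertheless made with earlier results of these data known, so counts over the 10 do not come from a blind list. The cells were RAW264.7, a line from a mouse tumour that resembles macrophages and is widely used in studies of inflammation and osteoclast formation. They had spent 3 days with either the Trio-Active bone scaffold (TABS) or hydroxyapatite doped with magnesium ions (HA/Mg), with 4 libraries per material that carry replicate numbers 5 to 8. No genotype or further agent is given for either group, the line is a single tumour-derived line, and what makes TABS active, the magnesium reaching the cells and cells without a scaffold are not described in the labels used here. Sample titles set the groups here, although library names use H for TABS and L for HA/Mg. An exchange of these letters would reverse every direction below.

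Magnesium is the most abundant divalent ion inside cells, where it binds ATP and serves many enzymes, and it crosses membranes only through proteins. Trpm7 encodes a channel of the plasma membrane, and Magt1, Mmgt1 and Nipa2 encode membrane proteins that raise magnesium entry when they are expressed. The Slc41 and Cnnm families are best known for carrying magnesium out of cells or for controlling that step, and Mrs2 admits it to mitochondria. In macrophages TRPM7 is known for its part in cytokine-driven growth and in the response to bacterial lipopolysaccharide.

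Values are FPKM, which divide fragments by gene length and library total. Levels of different genes can be set side by side only roughly, since differences in recovery by GC content or length remain. Steps between low values implied a depth of 19.8 M to 23.6 M fragments per library, an estimate, since only 30.5% to 32.0% of those values came within 0.05 of a whole fragment. On that estimate Slc41a2 rested on 93.5 to 178 fragments and Mmgt1 on 813 to 1238, which limits precision to a counting error of at most 10.3% and 3.51%. Whether libraries of 1 material were grown as separate cultures is not stated, so p-values reflect only how these libraries vary, and that variation may be technical. HA/Mg replicate 6 stood apart from its group, at 2.62 on the first principal component against -16.4 to -12.7 for the other 3 HA/Mg libraries and 5.72 to 16.5 for TABS. Of 8 macrophage markers 7 reached 1 FPKM in 4 or more libraries (the exception was Mertk), and their summed level was 2140 to 2508 FPKM with TABS and 1809 to 2241 FPKM with HA/Mg. Of the 7, Cd68 and Csf1r were called higher with TABS (limma adjusted p = 0.0197 and 0.0112) and 0 were called lower. Over the 10161 genes tested 5.07% were called higher and 13.1% lower. The median log2 change of the 7 was 0.18, opposite in sign to the -0.15 of the magnesium genes and the -0.04 of all genes tested. The part of this in the results below was not tested. Markers of osteoblasts, fibroblasts, T cells, B cells, endothelium, epithelium and red cells summed to at most 0.560 FPKM in any library, and those of osteoclasts to 2.14 to 3.80 FPKM with TABS and 2.03 to 2.55 FPKM with HA/Mg. Dcstamp was the only 1 of 6 osteoclast markers to reach 1 FPKM in 4 or more libraries, and Calcr was at 0 throughout.

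The 4 upstream stretches printed here belong to the gene with a called change that had an entry (Magt1), to the gene with the lowest ratio of levels (Trpm7) and to Cnnm3 and Cnnm4, which lie side by side. They come from RefSeq on GRCm38.p6, which held entries for 8 of the 10 genes, and each ends just before the first annotated exon base or the start site. Each is written 5′ to 3′ on the strand of its gene, and capitals mark matches on either strand to CCAAT, to GGGCGG, a sequence that SP1-like factors bind, and to TGCGCNC or TGCACNC, cores of the metal response element. Overlapping matches were counted separately.
Magt1, chrX:106011907-106012052, minus strand: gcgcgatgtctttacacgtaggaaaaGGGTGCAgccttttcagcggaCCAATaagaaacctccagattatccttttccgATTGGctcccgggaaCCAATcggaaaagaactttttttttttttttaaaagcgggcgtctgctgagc
Trpm7, chr2:126876262-126876511, minus strand: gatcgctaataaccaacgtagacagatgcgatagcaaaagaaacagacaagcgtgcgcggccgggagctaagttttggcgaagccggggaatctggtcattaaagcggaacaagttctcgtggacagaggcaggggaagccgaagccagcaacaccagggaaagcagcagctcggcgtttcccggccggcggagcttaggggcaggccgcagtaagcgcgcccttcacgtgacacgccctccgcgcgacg
Cnnm3, chr1:36511617-36511866, plus strand: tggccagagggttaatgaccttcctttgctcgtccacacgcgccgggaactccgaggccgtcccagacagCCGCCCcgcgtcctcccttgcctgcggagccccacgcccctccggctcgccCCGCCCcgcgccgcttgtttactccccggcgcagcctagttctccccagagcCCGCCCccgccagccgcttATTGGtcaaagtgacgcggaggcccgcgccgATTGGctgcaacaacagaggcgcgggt
Cnnm4, chr1:36471347-36471596, plus strand: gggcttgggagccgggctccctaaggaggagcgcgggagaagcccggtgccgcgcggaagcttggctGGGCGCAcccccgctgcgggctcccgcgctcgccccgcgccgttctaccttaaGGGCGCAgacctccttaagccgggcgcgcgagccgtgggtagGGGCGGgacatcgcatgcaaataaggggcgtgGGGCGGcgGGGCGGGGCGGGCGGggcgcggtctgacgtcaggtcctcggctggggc
The Magt1 stretch of 146 bases held 3 CCAAT matches and 1 TGCACNC match, while the 250 bases before Trpm7 held none of the 4 motifs. Cnnm3 had 2 CCAAT and 3 GGGCGG matches, and Cnnm4 had 5 GGGCGG and 2 TGCGCNC matches. Among all 32851 upstream windows of 250 bases in the table, 33.8% held CCAAT, 32.7% GGGCGG, 12.5% TGCGCNC and 10.4% TGCACNC. The GC content of the full windows was 56.4% for Magt1, 60.4% for Trpm7, 70.4% for Cnnm3 and 75.6% for Cnnm4, against a median of 52.4% over all windows. The full Magt1 window held 104 annotated exon bases and 4 CCAAT matches. Its printed stretch, without those bases, had 45.9% GC. A match is only a description of these letters, and binding was not measured.

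Magt1 and Mmgt1 were the most abundant of the 10 in both groups, and they were also the 2 genes that fell with TABS. Differences were tested with limma on log2(FPKM + 1) over the 10161 genes that reached 1 FPKM in 4 or more libraries, and all 10 entered. At an adjusted p under 0.05, 2 of the 10 were lower with TABS, 0 were higher and 8 did not pass, where 18.1% of all genes tested passed, 13.1% lower and 5.07% higher. The share of the 10 that passed is thus near the background, and nothing particular to magnesium transport is read from it. All 10 had a negative log2 change in the values as deposited, with a median of -0.15, beside 57.7% of all genes tested and a median of -0.04. The 12 other genes of magnesium transport that were tested, given below, split into 5 negative and 7 positive. The shared sign is thus a trait of the 10 as listed, not of magnesium transport genes at large. Among the 10, the sign turned positive for Cnnm2 with median-of-ratios scaling and for Cnnm2, Cnnm3 and Slc41a2 with quantile normalization. It also turned for Magt1 and Slc41a2 with the length and GC trends removed, for Cnnm2 on omission of TABS 8, HA/Mg 5 or HA/Mg 6, and for Slc41a2 on omission of TABS 7, TABS 8 or HA/Mg 8 (replicate numbers). Those scalings also moved the split of called genes over the whole table, which was 515 higher and 1327 lower as deposited, 806 higher and 1050 lower with median-of-ratios scaling, and 806 higher and 1192 lower with quantile normalization. TABS and HA/Mg were fully apart for 2 of the 10, both lower with TABS, where 15% of all genes tested were lower without overlap. In bulk RNA fewer cells of a type and less RNA per cell cannot be told apart.

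**Figure D1:**
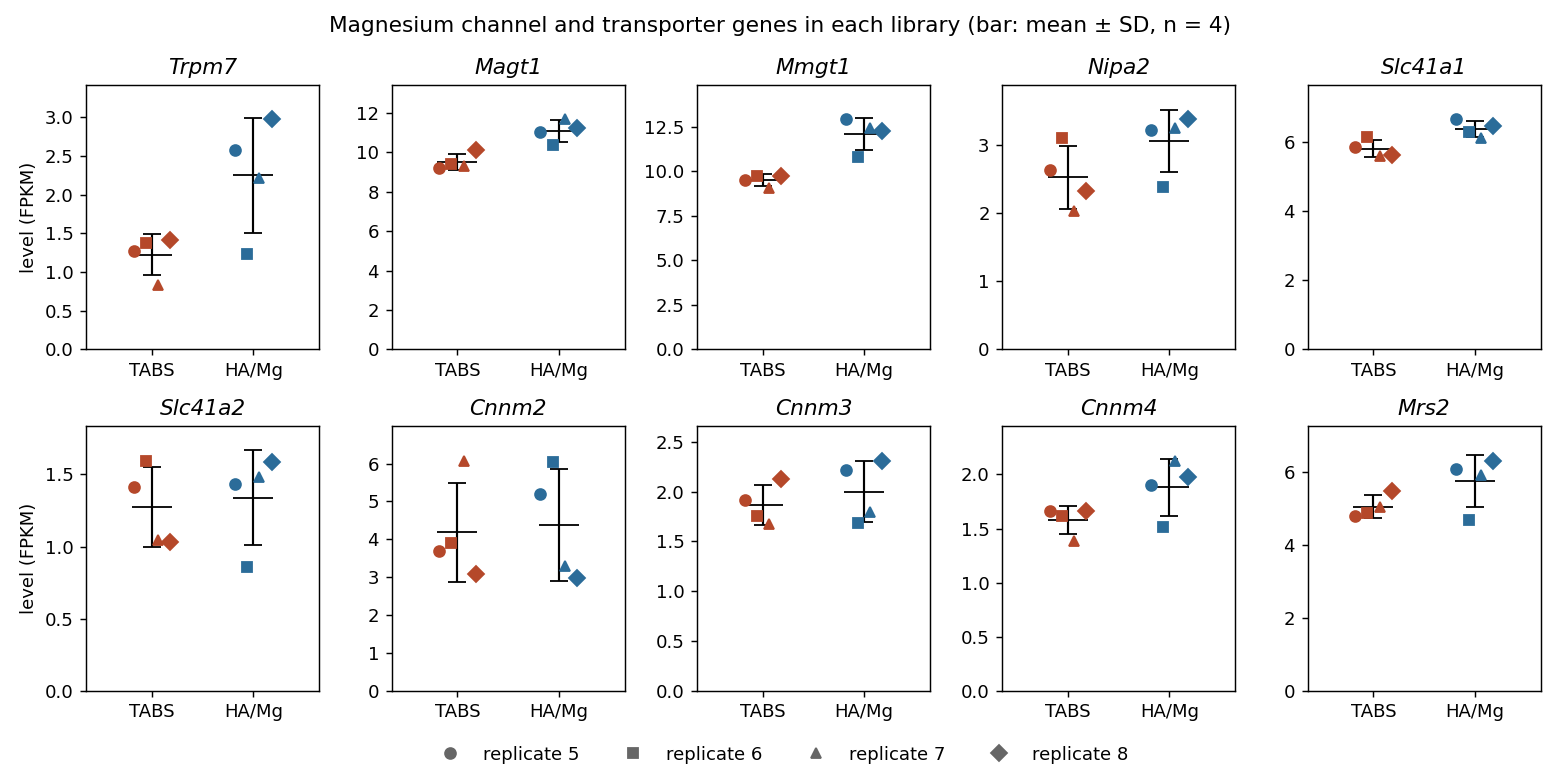
Level in FPKM of each magnesium channel and transporter gene in the 4 TABS and 4 HA/Mg libraries, with the mean and SD as bars and replicate numbers as symbols. Groups are fully apart only for Magt1 (9.22 to 10.1 against 10.4 to 11.7 FPKM) and Mmgt1 (9.03 to 9.73 against 10.8 to 12.9 FPKM), and HA/Mg replicate 6 is the lowest of its group for 8 of the 10 genes.

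Mmgt1 encodes a small protein placed in the Golgi and endosomes and named for magnesium transport, which is also subunit 5 of the endoplasmic reticulum (ER) membrane complex. The gene (ENSMUSG00000061273) occupies bases 56585512 to 56598069 of chromosome X in GRCm38, minus strand, and has 1 annotated transcript with 4 exons. Its level was 9.49, 9.71, 9.03 and 9.73 FPKM in TABS replicates 5 to 8, against 12.9, 10.8, 12.4 and 12.2 FPKM in HA/Mg replicates 5 to 8. Every TABS library lay below every HA/Mg library, and HA/Mg replicate 6 was the nearest to TABS. The mean was 9.49 ± 0.327 FPKM with TABS and 12.1 ± 0.904 FPKM with HA/Mg (SD, n = 4 each), 0.785 times as high with TABS. The log2 change was -0.32 ± 0.06 (SE, limma adjusted p = 0.0135). It passed with any 1 library left out (adjusted p of 0.00369 to 0.0492). With a block for replicate number, which may not pair the libraries, Mmgt1 did not pass (limma adjusted p = 0.0669), nor did any other gene. With trends on transcript length and GC content removed the log2 change of Mmgt1 was -0.11 ± 0.04 and did not pass (limma adjusted p = 0.114).

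Magt1 encodes a protein described both as a magnesium transporter and as an oxidoreductase subunit of oligosaccharyltransferase, the ER enzyme that attaches sugar chains to asparagine. In humans its loss causes an immune deficiency with persistent Epstein-Barr virus infection. The gene (ENSMUSG00000031232) occupies bases 105968084 to 106011906 of chromosome X, minus strand, with 10 exons in its longest transcript. It stood at 9.22, 9.42, 9.28 and 10.1 FPKM in TABS replicates 5 to 8, against 11.0, 10.4, 11.7 and 11.2 FPKM in HA/Mg replicates 5 to 8. The groups did not overlap, and TABS replicate 8 and HA/Mg replicate 6 were only a short distance apart. Means were 9.51 ± 0.409 FPKM with TABS and 11.1 ± 0.543 FPKM with HA/Mg (SD, n = 4 each), 0.859 times as high with TABS. The log2 change was -0.20 ± 0.05 (SE, limma adjusted p = 0.0338). With trends on transcript length and GC content removed the sign turned, to 0.0095 ± 0.051 (limma adjusted p = 0.926). The call also ended in each fit that left out a single library other than TABS replicate 8 or HA/Mg replicate 6 (limma adjusted p of 0.0692 to 0.102), with no filter on low values (0.0573), and under median-of-ratios (0.0587) and quantile scaling (0.0516).

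Trpm7 encodes a channel for magnesium, calcium and zinc that is fused to a protein kinase. It occupies bases 126791565 to 126876230 of chromosome 2, minus strand (ENSMUSG00000027365), with 39 exons in its longest transcript. Its level was 1.27, 1.38, 0.836 and 1.42 FPKM in TABS replicates 5 to 8, against 2.58, 1.24, 2.22 and 2.97 FPKM in HA/Mg replicates 5 to 8. HA/Mg replicates 5, 7 and 8 lay above all of TABS, while HA/Mg replicate 6 lay below 3 of the 4 TABS libraries. The mean was 1.23 ± 0.268 FPKM with TABS and 2.25 ± 0.744 FPKM with HA/Mg (SD, n = 4 each), or 0.544 times as high with TABS, the lowest ratio of the 10. The log2 change of -0.52 ± 0.17 (SE, 95% interval -0.91 to -0.14) did not pass over all genes (limma adjusted p = 0.0602). Without HA/Mg replicate 6 it was -0.69 ± 0.11 (limma adjusted p = 0.00517). On omission of any other 1 library Trpm7 did not pass (limma adjusted p of 0.0830 to 0.150).

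Nipa2 encodes a magnesium carrier of the plasma membrane and early endosomes, from a part of chromosome 7 (55931287 to 55962476, minus strand, ENSMUSG00000030452) whose human counterpart lies beside the Prader-Willi region. It was at 2.64, 3.11, 2.04 and 2.34 FPKM in TABS replicates 5 to 8, against 3.22, 2.39, 3.25 and 3.38 FPKM in HA/Mg replicates 5 to 8. The groups overlapped through HA/Mg replicate 6, and the log2 change of -0.20 ± 0.11 did not pass (SE, limma adjusted p = 0.224). Of its exon bases 18.6% are shared with Cyfip1 on the other strand, which stood at 16.1 to 17.4 FPKM. Whether the counting used strand is not known, so reads of the 2 genes may not be told apart there.

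The exchangers of the SLC41 family did not pass the test. Slc41a1 (chromosome 1, 131827493 to 131848865, plus strand, ENSMUSG00000013275), which encodes a sodium-dependent magnesium exporter, ranged from 5.59 to 6.13 FPKM with TABS and from 6.10 to 6.64 FPKM with HA/Mg. Only TABS replicate 6 and HA/Mg replicate 7 crossed, and the spread within groups was small (coefficient of variation 4.27% with TABS and 3.63% with HA/Mg). The log2 change was -0.12 ± 0.05 (SE, 95% interval -0.24 to 0.00060, limma adjusted p = 0.139). Slc41a2 (chromosome 10, 83230848 to 83337882, minus strand, ENSMUSG00000034591), a relative that carried magnesium when the mouse protein was made in frog oocytes, ranged from 1.03 to 1.60 FPKM with TABS and from 0.858 to 1.59 FPKM with HA/Mg. These ranges nearly coincide, and the log2 change was -0.04 ± 0.12 (SE, 95% interval -0.32 to 0.24, limma adjusted p = 0.847).

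The CNNM proteins sit in the plasma membrane and are needed for magnesium export in gut and kidney, though whether each carries the ion itself is debated. Cnnm4 (36471620 to 36508764, ENSMUSG00000037408) and Cnnm3 (36511867 to 36528237, ENSMUSG00000001138) lie 3.10 kb apart on the plus strand of chromosome 1. Cnnm4 was at 1.66, 1.61, 1.38 and 1.66 FPKM in TABS replicates 5 to 8, against 1.90, 1.52, 2.13 and 1.97 FPKM in HA/Mg replicates 5 to 8. HA/Mg replicates 5, 7 and 8 again lay above all of TABS, and replicate 6 did not. The log2 change of Cnnm4 was -0.16 ± 0.08 (SE, limma adjusted p = 0.190), and without HA/Mg replicate 6 it was -0.22 ± 0.07 (limma adjusted p = 0.0359). On omission of any other 1 library Cnnm4 did not pass (limma adjusted p of 0.218 to 0.407). Cnnm3 overlapped widely between the groups, at 1.67 to 2.13 FPKM with TABS and 1.69 to 2.31 FPKM with HA/Mg, and its log2 change was -0.06 ± 0.09 (SE, 95% interval -0.26 to 0.14, limma adjusted p = 0.639).

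Cnnm2 (chromosome 19, 46761596 to 46880192, plus strand, ENSMUSG00000064105), in which human mutations cause loss of magnesium in the urine, was the most variable of the 10. It was at 3.70, 3.91, 6.08 and 3.07 FPKM in TABS replicates 5 to 8, against 5.19, 6.03, 3.28 and 2.98 FPKM in HA/Mg replicates 5 to 8. High values occurred in both groups, in TABS replicate 7 and in HA/Mg replicates 5 and 6. The coefficient of variation was 31.2% with TABS and 33.8% with HA/Mg, and the log2 change of -0.04 ± 0.22 (SE, 95% interval -0.52 to 0.45, limma adjusted p = 0.914) leaves changes of either sign within its interval.

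Mrs2 encodes the magnesium channel of the inner mitochondrial membrane, a relative of the bacterial protein CorA (chromosome 13, 24987483 to 25020379, minus strand, ENSMUSG00000021339). It was at 4.79, 4.88, 5.04 and 5.48 FPKM in TABS replicates 5 to 8, against 6.08, 4.69, 5.91 and 6.31 FPKM in HA/Mg replicates 5 to 8. HA/Mg replicates 5, 7 and 8 exceeded all TABS libraries, while HA/Mg replicate 6 was the lowest of all 8. The log2 change was -0.15 ± 0.08 (SE, limma adjusted p = 0.220), and without HA/Mg replicate 6 it was -0.23 ± 0.06 (limma adjusted p = 0.0196). On omission of any other 1 library Mrs2 did not pass (limma adjusted p of 0.196 to 0.427). With trends on transcript length and GC content removed its log2 change was -0.016 ± 0.068 (limma adjusted p = 0.902). Mrs2 shares 32.4% of its exon bases with Gpld1 on the other strand, which did not exceed 0.0187 FPKM.

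**Figure D2:**
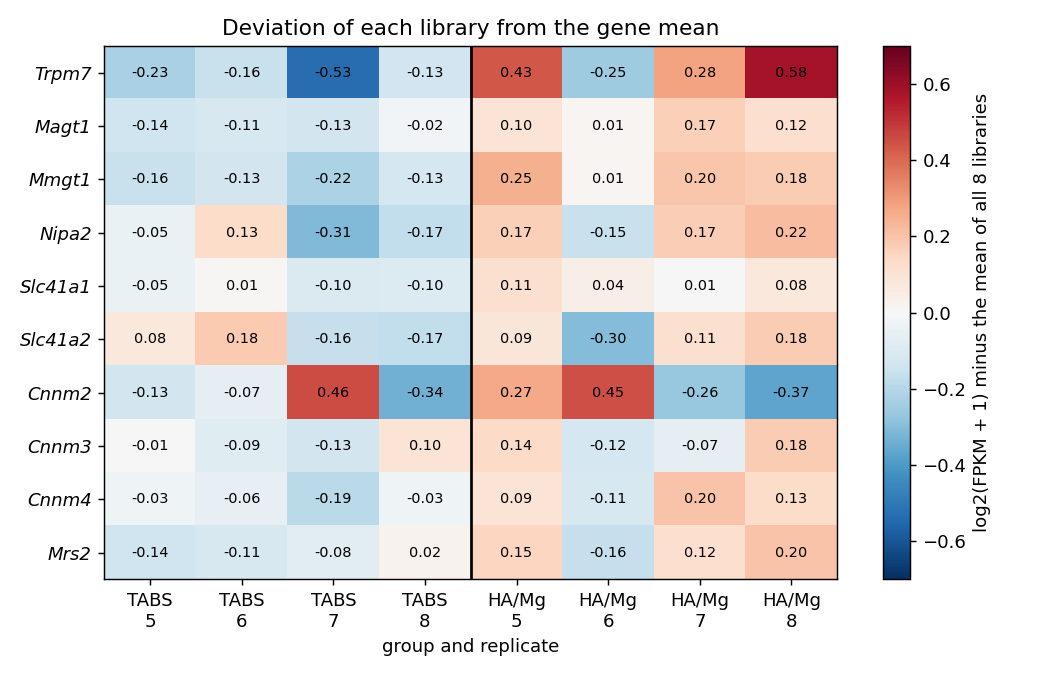
Deviation of each library from the mean of all 8, in log2(FPKM + 1), for the 10 genes, with TABS to the left of the line and HA/Mg to its right. HA/Mg replicate 5 lies above the mean for all 10 genes, HA/Mg replicate 6 below it for 6, and TABS replicates 5 and 7 below it for 9 each.

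The order of levels was much alike in both groups. With TABS, Magt1 and Mmgt1 (9.51 and 9.49 FPKM) led, with overlapping ranges, and stood clear of Slc41a1 (5.80 FPKM). Mrs2 (5.05 FPKM), Cnnm2 (4.19 FPKM) and Nipa2 (2.53 FPKM) followed, each overlapping the next, and Cnnm3 (1.87 FPKM), Cnnm4 (1.58 FPKM), Slc41a2 (1.27 FPKM) and Trpm7 (1.23 FPKM) closed the order. Cnnm3 and Cnnm4 did not overlap with TABS, and Slc41a1 did not overlap Mrs2. With HA/Mg, Mmgt1 and Magt1 (12.1 and 11.1 FPKM) overlapped and stood clear of Slc41a1 (6.37 FPKM), and every later neighbour overlapped. Trpm7 took place 10 with TABS and place 7 with HA/Mg, where its range overlapped those of Nipa2 and Cnnm3. The 10 levels summed to 41.9 to 43.5 FPKM with TABS and to 45.8 to 53.2 FPKM with HA/Mg, and Magt1 and Mmgt1 made up 43.6% to 47.9% of that sum.

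HA/Mg replicate 6 moved with these differences, and the results without it are as follows. In these same data it was the HA/Mg library nearest to TABS on the first principal component, so its omission tends to widen gaps. Calls over the whole table rose from 1842 to 3320, while omission of any other 1 library gave 429 to 1227. The counts without it are therefore not an independent check. In the fit without HA/Mg replicate 6, 5 of the 10 genes were lower (Trpm7, Magt1, Mmgt1, Cnnm4 and Mrs2) and 0 higher. Of all genes tested 32.7% passed in that fit, 24.1% lower and 8.54% higher. The log2 change was then -0.37 ± 0.05 for Mmgt1 (limma adjusted p = 0.00369) and -0.23 ± 0.05 for Magt1 (adjusted p = 0.0122). Nipa2 did not pass (-0.29 ± 0.10, limma adjusted p = 0.0580), nor did Slc41a1, Slc41a2, Cnnm2 and Cnnm3 (adjusted p of 0.119 to 0.727). HA/Mg replicate 6 also differed from the rest of its group in how its values went with GC content and transcript length, as given next. The part of whatever sets this library apart was not tested.

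Transcript base composition also moved with the groups. Across all genes tested, the rank correlation of a library's deviation with GC content was 0.24 to 0.44 in TABS libraries. It was -0.49 to -0.34 in HA/Mg replicates 5, 7 and 8 and -0.10 in HA/Mg replicate 6. Genes poor in G and C thus tended to read lower with TABS. Trpm7, Nipa2, Mmgt1 and Magt1 had 40.1% to 40.7% GC in their longest transcripts, within the lowest of 5 equal classes of genes by GC content. That class had a median log2 change of -0.20, 87.6% of its genes had a negative change, and 30.8% were called lower at an adjusted p under 0.05. Magt1 and Nipa2, both at -0.20, lay close to that median, while Mmgt1 at -0.32 and Trpm7 at -0.52 lay below it. Cnnm4, Slc41a1 and Cnnm2 (54.1% to 55.0% GC) lay in a class with a median log2 change of 0.04, where 39.5% of genes had a negative change and 3.00% were called lower, and the 3 genes lay below that median at -0.16, -0.12 and -0.04. Cnnm3 (56.7% GC) at -0.06 lay below the 0.08 of its class. In the class that holds Mrs2 and Slc41a2 the median was -0.12, with Mrs2 below it at -0.15 and Slc41a2 above it at -0.04. Across all genes the rank correlation of the log2 change with transcript length was -0.31, so longer transcripts tended to read lower with TABS. Not every library of a material shared this trend. The rank correlation of a library's deviation with length was -0.43 and -0.35 in TABS replicates 7 and 8. In TABS replicates 5 and 6 it was 0.031 and -0.029. It was 0.29 to 0.35 in HA/Mg replicates 5, 7 and 8 but -0.23 in HA/Mg replicate 6. All 10 transcripts were longer than the median of 3039 bases, and the GC classes take no account of length.

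**Figure D3:**
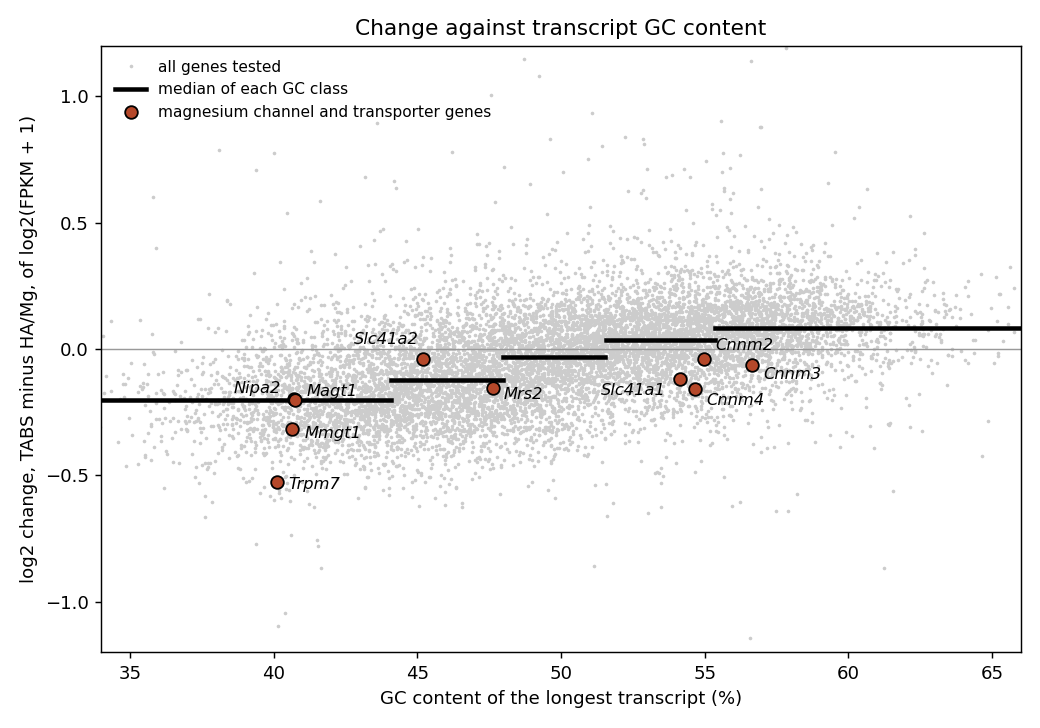
Log2 change (TABS minus HA/Mg) against the GC content of the longest transcript for 10157 genes in grey, 41 of them outside the axes, with black bars at the median of each of 5 equal GC classes and the 10 magnesium genes in red. Trpm7, Mmgt1, Magt1 and Nipa2 stand together at the left, where the class median is -0.20, and the Cnnm genes and Slc41a1 stand at the right, below medians of 0.04 and 0.08.

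When the dependence on transcript length and on GC content was taken out of each library, 0 of the 10 genes passed limma's test. Of all genes 6.37% passed, 3.78% lower and 2.59% higher. At an unadjusted p under 0.05 lay 4 of the 10, beside 2798 of 10157 genes over the whole table. Beside the values of Magt1 and Mmgt1 given above, the log2 change of Nipa2 was then -0.0041 ± 0.075 (limma adjusted p = 0.980) and that of Trpm7 was -0.29 ± 0.12 (adjusted p = 0.161). The GC-rich genes moved little: Cnnm4 was at -0.17 ± 0.06 (limma adjusted p = 0.108) and Slc41a1 at -0.13 ± 0.05 (adjusted p = 0.128). The intervals of Trpm7 (-0.55 to -0.02), Mmgt1 (-0.20 to -0.02), Cnnm4 (-0.31 to -0.04) and Slc41a1 (-0.23 to -0.02) lay below 0 before any adjustment for the number of genes. Slc41a2 turned to 0.12 ± 0.09 (limma adjusted p = 0.415).

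**Figure D4:**
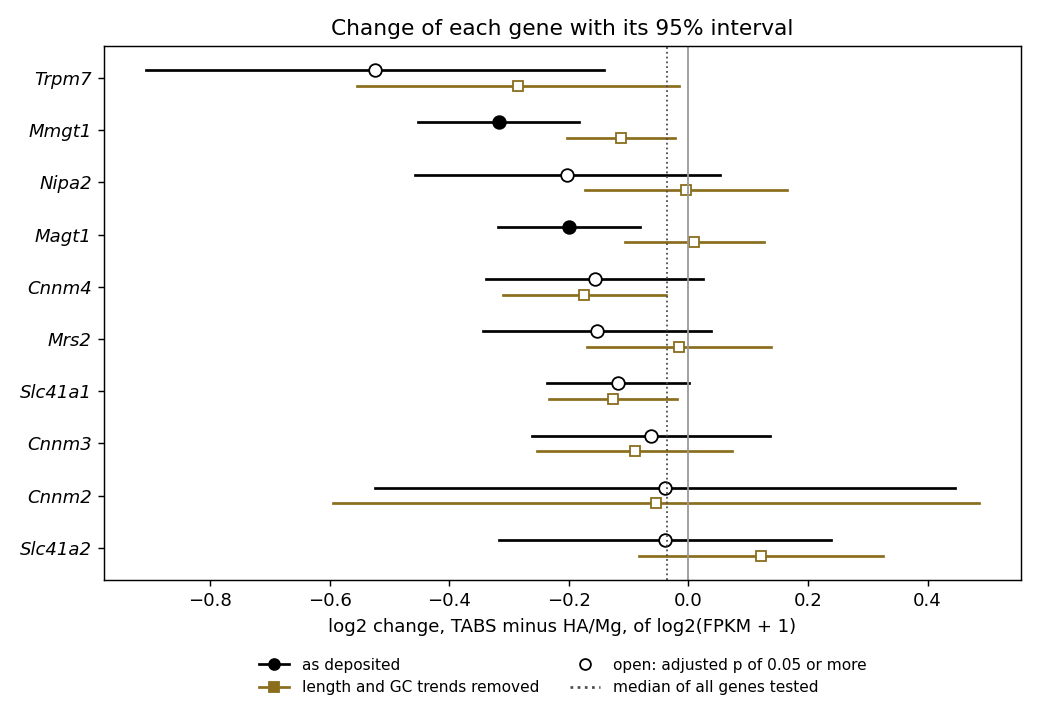
Log2 change, TABS minus HA/Mg, with its 95% interval for each of the 10 genes, as deposited (black circles) and after removal of the trends on length and GC content (brown squares); filled symbols passed an adjusted p of 0.05. As deposited, Mmgt1 (-0.32) and Magt1 (-0.20) passed, and after the removal no gene did.

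No other listed gene of magnesium transport passed. Of 20 listed, 12 were tested and 0 passed limma's test, where 18.1% of all genes tested passed. At an unadjusted p under 0.05 lay 3 of the 12, beside 3703 of all 10161 genes tested. Of the 12, 5 had a negative and 7 a positive log2 change. Against -0.04 over all genes tested, the median log2 change of the 12 was 0.04. That median was -0.0097 without HA/Mg replicate 7 and 0.0032 to 0.027 without any other 1 library, so it has no settled sign. Trpm6, the kidney and gut relative of Trpm7, was listed at 0 in every library, as were Nipal2, Nipal4 and the kidney tight-junction gene Cldn16, while Cnnm1, Nipal1, Nipa1 and Cldn19 stayed below 1 FPKM. The smallest p-values belonged to Slc25a24, a mitochondrial carrier that exchanges ATP-magnesium for phosphate, and to Tmem94, described as a magnesium pump of the ER. Slc25a24 was at 20.5, 20.9, 16.6 and 19.0 FPKM in TABS replicates 5 to 8, against 23.2, 20.4, 26.0 and 24.5 FPKM in HA/Mg replicates 5 to 8 (log2 change -0.28 ± 0.09, limma adjusted p = 0.0564). Tmem94 was at 10.1, 10.2, 10.4 and 11.1 FPKM in TABS replicates 5 to 8, against 9.45, 9.31, 9.57 and 8.82 FPKM in HA/Mg replicates 5 to 8. The groups did not overlap for Tmem94, which was higher with TABS in every library, but the log2 change of 0.16 ± 0.05 did not pass as deposited (limma adjusted p = 0.0593) and did with median-of-ratios scaling (0.0364) and quantile normalization (0.030). Tmem94 shares 3.11% of its exon bases with Caskin2 on the other strand. Slc25a24 passed with quantile normalization (limma adjusted p = 0.0497) and without HA/Mg replicate 6 (0.0163). Slc25a24 and Tmem94 thus each passed in 2 of 16 alternatives. With the length and GC trends removed neither did (Slc25a24 -0.11 ± 0.06, limma adjusted p = 0.288, and Tmem94 0.12 ± 0.06, adjusted p = 0.264). Ptp4a1 carries 2 Ensembl identifiers at the same position, between which reads may be split, so its value is uncertain.

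Magt1 and Mmgt1 each belong to a complex of the ER, and the other subunits were counted in the same fit. Of 11 other subunits of oligosaccharyltransferase 1 fell, 1 rose and 9 did not pass, near the 18.1% of all genes tested that passed. Their median log2 change was 0.06 (-0.0099 with quantile normalization, and 0.031 to 0.089 with 1 library left out). Stt3b, the catalytic subunit of the form of the enzyme that holds MAGT1 or TUSC3, was 48.0 ± 1.64 FPKM with TABS and 52.8 ± 1.16 FPKM with HA/Mg (SD, n = 4 each; log2 change -0.13 ± 0.04, limma adjusted p = 0.0457). Krtcap2, a subunit of the other form, was 70.3 ± 2.69 FPKM with TABS and 59.8 ± 5.61 FPKM with HA/Mg (SD, n = 4 each; log2 change 0.23 ± 0.06, limma adjusted p = 0.0375), and 15.7% of its exon bases are shared with Trim46 on the other strand. Both calls ended once the length and GC trends were removed (limma adjusted p = 0.398 for Stt3b and 0.0911 for Krtcap2) and without any 1 library other than HA/Mg replicate 6 (adjusted p of 0.0527 to 0.132). The Stt3b call also ended with median-of-ratios scaling (0.229), and both ended with no filter on low values (0.0657 to 0.0938). Tusc3, which is in both lists and can take the place of MAGT1 in the enzyme, was 22.7 FPKM with TABS and 23.1 FPKM with HA/Mg (log2 change -0.02 ± 0.05, limma adjusted p = 0.788), and it was singled out after its values were seen.

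Of 9 other subunits of the ER membrane complex, which inserts proteins into the ER membrane, 1 fell, 0 rose and 8 did not pass, beside 13.1% of all genes tested that were lower. Their median log2 change was 0.03 (0.012 to 0.051 with 1 library left out). The subunit that fell was Emc2, at 12.3, 13.2, 12.9 and 12.4 FPKM in TABS replicates 5 to 8, against 16.1, 16.1, 16.1 and 14.4 FPKM in HA/Mg replicates 5 to 8. The groups did not overlap, and the log2 change was -0.28 ± 0.05 (SE, limma adjusted p = 0.0126). Its longest transcript has 41.1% GC, in the same class as Mmgt1, and after removal of the trends it was at -0.14 ± 0.05 (limma adjusted p = 0.134).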

How the data were processed

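The authors deposited 1 table of FPKM values for 8 libraries, with replicates kept apart. Per the labels' protocols, RNA was taken with TRIzol, had an integrity number above 7, and was sequenced as paired reads from NEBNext Ultra libraries. The submitters' processing notes name fastp, STAR, DESeq2 and the build GRCm38, with no order. Versions, gene annotation, the tool that made the FPKM and use of strand were not given in sources used here. Because FPKM divides by a total, abundant transcripts shift all other values, and differences in recovery by GC content or length remain.

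Of 55335 identifiers 55154 matched GENCODE M21 (GRCm38), the source of symbols, positions, lengths and GC content. The 10161 genes that reached 1 FPKM in 4 or more libraries were fitted with limma 3.58.1 in R 4.3.3 on log2(FPKM + 1), with moderation and a mean-variance trend, two-sided, TABS minus HA/Mg, with Benjamini-Hochberg adjustment over all of them. This scale understates changes of low genes. The genes and lists were chosen with earlier results of these data known. All 10 genes were named, as were up to 4 called genes per further list, or the 2 smallest p-values where none was called. Alternatives covered pseudocount, filters, scaling, trends (natural splines, 4 degrees of freedom), a block for replicate number and omission of single libraries. Steps were tested on simulated data.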

Additional observations from a re-analysis of the deposited data

Results flagged for a closer look

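In 2 of 30 sets of 4 libraries examined, 1 library lay far from the other 3 (its gap to the nearest, over the whole range, exceeded Dixon's critical value at 95%), and chance alone marks about 1 set in 20. Nipa2 was 2.39 FPKM in HA/Mg replicate 6, against 3.22 to 3.38 FPKM in the other HA/Mg libraries. Emc2 was 14.4 FPKM in HA/Mg replicate 8, against 16.1 FPKM in each of the other HA/Mg libraries.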

How the results depend on the processing

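Over the whole table limma called 1842 genes as deposited, 808 with no filter on low values and 647 with length and GC trends removed. It called 858, 1143, 943 and 1227 without TABS replicates 5 to 8 and 429, 3320, 475 and 694 without HA/Mg replicates 5 to 8. Of the 10 magnesium genes 2 passed as deposited. That was 1 with no filter, with median-of-ratios scaling and with quantile normalization, 0 with trends removed, and 1 to 5 with 1 library left out (5 in the fit lacking HA/Mg replicate 6, 2 in that lacking TABS replicate 8 and 1 in the others). Of the other magnesium genes 0 passed as deposited, 1 with median-of-ratios scaling, 3 with quantile normalization and 0 to 2 with 1 library left out. Of the oligosaccharyltransferase subunits 2 passed as deposited, 0 with no filter, 1 with median-of-ratios scaling, 0 with trends removed and 0 to 2 with 1 library left out. Of the ER membrane complex subunits 1 passed as deposited, 0 with trends removed and 1 to 2 with 1 library left out. With trends removed, 4, 2 and 3 of the magnesium, oligosaccharyltransferase and ER membrane complex genes lay at an unadjusted p under 0.05. Over the whole table that was 2798 of 10157 genes.

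Whether replicate numbers pair the libraries is not stated. Same-numbered deviations from the group means correlated at 0.011, -0.27, -0.16 and 0.13 for replicates 5 to 8. Libraries of unlike number correlated at -0.25 to 0.38, and so few values cannot settle the pairing. With the replicate block limma called 0 genes (smallest adjusted p 0.0589, 2987 genes at an unadjusted p under 0.05), and so 0 of the magnesium genes (3 at that level), 0 oligosaccharyltransferase subunits (2) and 0 ER membrane complex subunits (1). With trends removed as well as the replicate block it also called 0 in each (2223, 2, 2 and 2 at an unadjusted p under 0.05).

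Of the 10 log2 changes, those of 4 genes turned positive in some alternatives, 2 for Magt1, 5 for Cnnm2, 1 for Cnnm3 and 6 for Slc41a2. Magt1 did so with trends removed (0.0095, also with the replicate block), and Slc41a2 likewise (0.12). Cnnm2 was at 0.0060 with median-of-ratios scaling and 0.050 with quantile normalization, which put Cnnm3 at 0.025 and Slc41a2 at 0.029. With 1 library left out, Cnnm2 ranged from -0.20 to 0.10 and Slc41a2 from -0.15 to 0.014. Trpm7, Mmgt1, Cnnm4, Slc41a1, Nipa2 and Mrs2 stayed negative in every alternative that gave a value. Trpm7 and Slc41a2 had no value where 1 FPKM was required in all libraries. Apart from the fewer libraries or other genes in a fit, the cause was not tested.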
